A study of Mus musculus with 11 samples.

Results

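The genes described here are 10 secreted regulators of Wnt signalling in mammary fibroblasts. They comprise 4 Wnt ligands (Wnt2, Wnt5a, Wnt5b and Wnt11), 3 secreted Frizzled-related proteins (Sfrp1, Sfrp2 and Sfrp4), 2 Dickkopf proteins (Dkk2 and Dkk3) and the Wnt inhibitory factor Wif1. Each was read from a probe set whose only gene symbol was its own. All 10 were found among the 19938 genes of the arrays, each with 1 probe set. The study profiled fibroblasts sorted from fresh mammary tissue of female mice on 11 gene expression arrays, to follow how fibroblasts change as mammary tumours form. Carcinoma was sampled on 3 arrays (D3, D4 and D10) from MMTV-PyMT mice of 9 weeks, advanced carcinoma on 3 (D8, D9 and D11) from MMTV-PyMT mice of 12 weeks and hyperplasia on 3 (D6, D7 and D12) from MMTV-PyMT mice of 4 weeks. Normal glands were sampled on 2 arrays (D2 and D5) from FVB/n mice of 8 weeks. The MMTV-PyMT line is of the FVB/n strain as well. MMTV-PyMT mice carry the polyoma middle T oncogene under the mouse mammary tumour virus promoter, which is active mainly in mammary epithelium. Each array holds RNA pooled from a cohort of mice, the sort kept cells that carry CD140a (PDGFRα) and lack F4/80, and age differed with stage, so age and stage cannot be told apart. The sample labels add absence of EpCAM to the gate, which the methods name for other sorts and not for these arrays. Fibroblasts of carcinoma and advanced carcinoma are called cancer-associated fibroblasts (CAFs) below.

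Wnt ligands are lipid-modified secreted proteins that bind Frizzled receptors on nearby cells. With the Lrp5 or Lrp6 co-receptor they stabilise β-catenin, which then acts with TCF/LEF factors on target genes, and through other receptors they act on cell polarity and movement. Secreted Frizzled-related proteins and Wif1 bind the ligands outside the cell, while Dickkopf proteins such as Dkk2 bind the Lrp co-receptors. In the mammary gland, Wnt signals between stroma and epithelium guide the growth and branching of the ducts.

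Start-site sequences are shown for 3 ligands: Wnt2, which had the largest fall among the 10 genes, and Wnt5b and Wnt11, the 2 genes whose windows held the TCF/LEF core motif CTTTGAT, read as ATCAAAG on the other strand. RefSeq promoter windows (GRCm38.p6) of 300 bases, from 250 bases before to 50 after a gene's start, matched 6 of the 10 genes with 9 windows in all. Wnt5a, Sfrp1, Sfrp4 and Dkk3 had no window in the set used here. The Wnt2 window lies at chr6:18030396-18030695 on the minus strand, that of Wnt5b at chr6:119449337-119449636 on the minus strand and that of Wnt11 at chr7:98834862-98835161 on the plus strand. Each is written 5′ to 3′ on the gene's own strand, with a motif match in capitals.
Wnt2: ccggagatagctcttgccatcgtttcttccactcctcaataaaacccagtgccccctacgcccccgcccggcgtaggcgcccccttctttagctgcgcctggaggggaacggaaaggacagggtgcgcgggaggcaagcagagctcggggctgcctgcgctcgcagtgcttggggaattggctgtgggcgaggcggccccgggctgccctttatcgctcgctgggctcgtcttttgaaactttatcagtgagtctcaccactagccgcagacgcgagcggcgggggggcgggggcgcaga
Wnt5b: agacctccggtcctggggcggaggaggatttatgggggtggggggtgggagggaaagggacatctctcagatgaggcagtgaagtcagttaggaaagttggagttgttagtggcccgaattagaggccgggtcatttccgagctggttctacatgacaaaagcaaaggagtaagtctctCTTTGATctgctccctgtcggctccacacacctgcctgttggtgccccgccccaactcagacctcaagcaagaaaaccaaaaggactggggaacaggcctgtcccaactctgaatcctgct
Wnt11: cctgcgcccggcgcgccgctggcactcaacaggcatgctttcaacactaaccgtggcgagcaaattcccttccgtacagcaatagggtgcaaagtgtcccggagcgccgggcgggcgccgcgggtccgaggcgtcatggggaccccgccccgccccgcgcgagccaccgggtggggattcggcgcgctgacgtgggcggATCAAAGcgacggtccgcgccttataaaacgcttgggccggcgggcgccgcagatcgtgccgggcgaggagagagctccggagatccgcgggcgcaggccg
The Wnt2 window held no match on either strand. The motif was in 1 of the 3 windows of Wnt5b, as CTTTGAT, and in 1 of the 2 windows of Wnt11, as ATCAAAG. A match on either strand was present in 3.73% of 32851 mouse promoter windows of the same length, and these matches are letters in a window, not measured binding sites.

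The values are log2 expression after robust multi-array averaging (RMA), and 1 unit is a doubling. Array medians lay between 5.28 and 5.39. Normal D2 and advanced carcinoma D11 were tied: added together, they gave 2 times the mean of the remaining 9 arrays for each probe set, with a largest gap of 0.000144. For every other pair of the 55 the largest gap was 3.55 or more. The 11 arrays therefore hold 10 independent columns, and calls that change with a term for these arrays are given below. The array of carcinoma D4 stood apart, where 13 fibroblast markers, Pdgfra among them, averaged 9.42. Their average was 10.68 to 11.07 on the remaining CAF arrays and 10.96 to 11.40 on normal and hyperplasia arrays. The mean of 15 luminal epithelial markers was 8.43 to 9.54 in CAF arrays, with D4 highest, and 6.08 to 7.64 in the others. Epcam, an epithelial surface marker, was at 8.69 to 9.91 in CAF arrays and 6.02 to 8.01 in the others. The mean of 12 macrophage markers was 6.08 to 8.09 in CAF arrays and 4.71 to 6.05 in the others. Of these markers 14 of 15 luminal and 12 of 12 macrophage genes were higher in CAFs at an adjusted p under 0.05 (limma). Of the 13 fibroblast markers 2 passed as lower and 0 as higher, with a median log2 difference of -0.59. Without D4, 9 of the 13 passed as lower, with a median of -0.35. The mean of 9 adipocyte markers was 5.57 to 6.03 in CAF arrays and 6.13 to 6.81 in the others, and 6 of the 9 passed as lower. The mean of 5 B cell markers was 5.52 to 6.86 in CAF arrays and 6.43 to 8.13 in the others, and 3 of the 5 passed as lower (1 with the term for D2 and D11). Their part in the results below was not tested, and in sorted bulk samples fewer cells of a type and less RNA per cell cannot be told apart.

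In CAFs, Wnt2 and Wnt5a were lower and Wnt5b was higher than in fibroblasts of normal glands and hyperplasia, while none of the 6 antagonists passed the test. Wnt2 fell 2.63-fold, Wnt5a fell 1.86-fold and Wnt5b rose 1.42-fold. These were 3 of the 10 genes at an adjusted p under 0.05 (limma, Benjamini-Hochberg over all genes), beside 24.9% of all genes. In the same 3 genes no CAF array overlapped with a normal or hyperplasia array, which held for 14.9% of all genes. Wnt2 and Wnt5a also passed the study's threshold (unadjusted p under 0.05 and fold over 1.5), as did 12.2% of all genes. The median log2 difference of the 10 genes was -0.21, and that of all genes was -0.04.

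**Figure D1:**
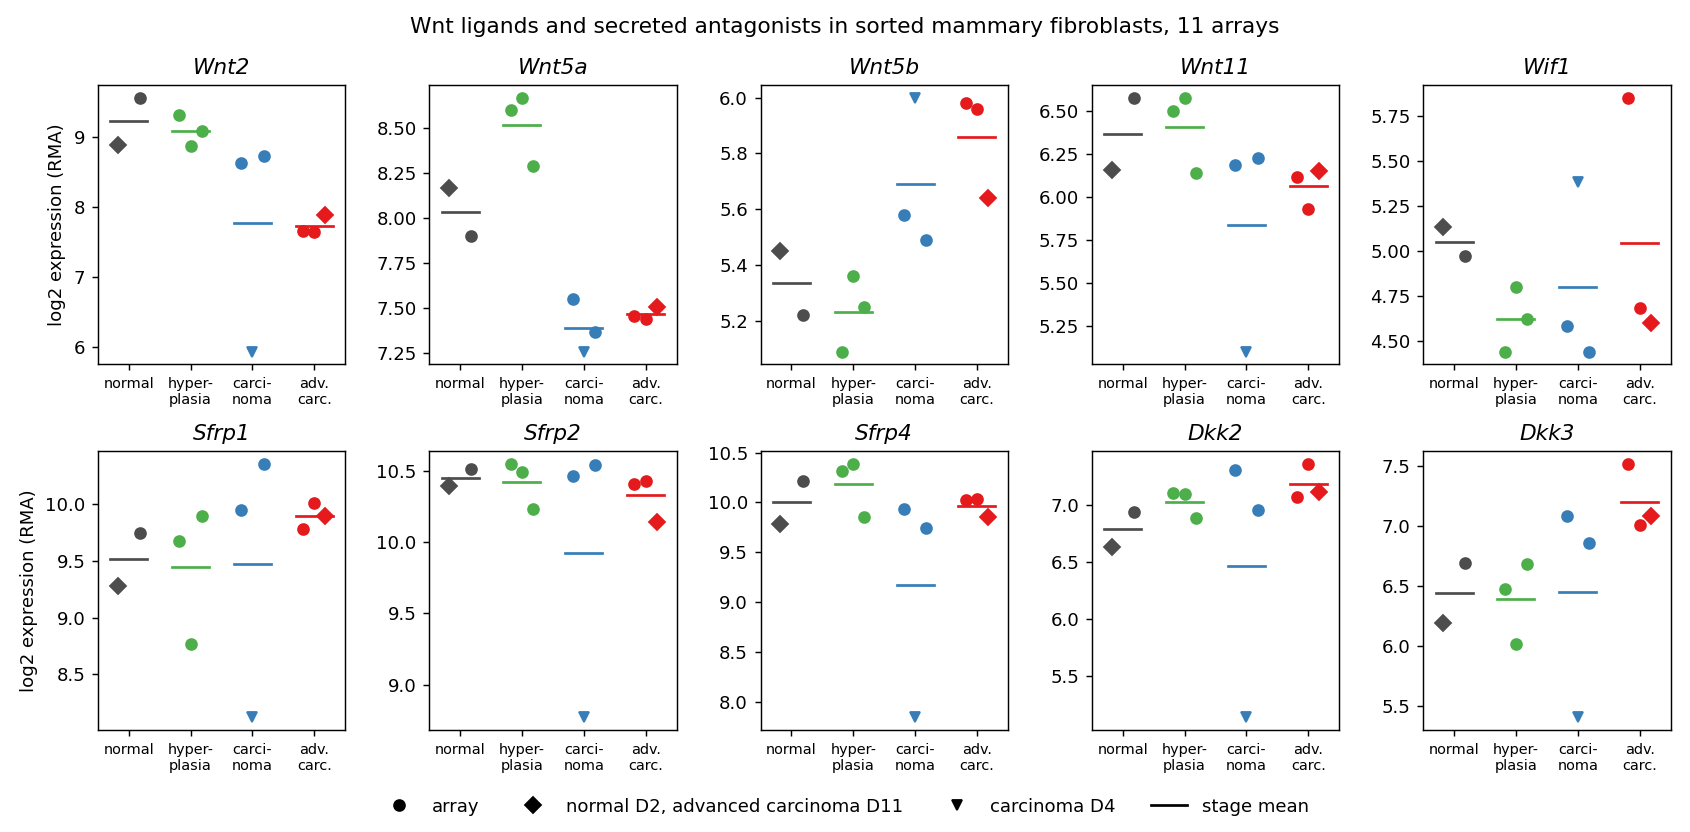
Log2 RMA expression (y axis, a separate scale for each gene) of the 10 genes on each of the 11 arrays by stage (x axis), with bars at stage means, diamonds at normal D2 and advanced carcinoma D11 and a triangle at carcinoma D4. Wnt5a sits at 7.26 to 7.55 in all 6 CAF arrays and at 7.90 or more elsewhere, and carcinoma D4 is the lowest array in 8 of the 10 panels. The share of all genes that are lowest in D4 was not computed.

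Wnt5a, a ligand known mainly for β-catenin-independent signalling, gave the smallest adjusted p of the 10 genes. It was at 7.55, 7.26 and 7.37 in carcinoma D3, D4 and D10 and at 7.46, 7.44 and 7.51 in advanced carcinoma D8, D9 and D11. It was at 8.60, 8.67 and 8.29 in hyperplasia D6, D7 and D12 and at 8.17 and 7.90 in normal D2 and D5. Every CAF array was below every other array, and the CAF arrays lay close together. The means were 7.43 ± 0.10 in CAFs (SD, n = 6) and 8.32 ± 0.32 in normal and hyperplasia arrays (SD, n = 5). The log2 difference was -0.89 (SE 0.13, 95% interval -1.17 to -0.62, adjusted p in limma 0.000812), and it passed with any 1 array left out.

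Wnt2, a ligand of the β-catenin arm, had the largest difference and the largest spread. It was at 8.63, 5.94 and 8.73 in carcinoma D3, D4 and D10 and at 7.66, 7.65 and 7.88 in advanced carcinoma D8, D9 and D11. It was at 9.31, 8.87 and 9.09 in hyperplasia D6, D7 and D12 and at 8.88 and 9.56 in normal D2 and D5. The groups did not overlap, although carcinoma D3 and D10 lay just below the lowest hyperplasia array. Its SD over the 11 arrays, 1.03, was larger than that of 98.2% of genes. The means were 7.75 ± 1.0 in CAFs (SD, n = 6) and 9.14 ± 0.29 in normal and hyperplasia arrays (SD, n = 5), a log2 difference of -1.39 (SE 0.42, 95% interval -2.32 to -0.46, adjusted p in limma 0.0338). Without carcinoma D4 the difference was -1.03, with an adjusted p of 0.012. The call was lost without normal D5 (adjusted p = 0.0726), hyperplasia D6 (0.0713), D7 (0.0564) or D12 (0.0588), or advanced carcinoma D8 (0.0645), D9 (0.064) or D11 (0.0526). It was also lost with unmoderated contrasts of the same groups in place of limma (adjusted p 0.0626). With the term for D2 and D11 the adjusted p was 0.0496.

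Wnt5b, the close relative of Wnt5a, moved the other way. It was at 5.58, 6.0 and 5.49 in carcinoma D3, D4 and D10 and at 5.98, 5.96 and 5.64 in advanced carcinoma D8, D9 and D11. It was at 5.09, 5.36 and 5.25 in hyperplasia D6, D7 and D12 and at 5.45 and 5.22 in normal D2 and D5. All CAF arrays were above all others, the closest pair being carcinoma D10 and normal D2, and D4 was the highest array. The means were 5.78 ± 0.23 in CAFs (SD, n = 6) and 5.27 ± 0.14 in normal and hyperplasia arrays (SD, n = 5). The log2 difference was 0.50 (SE 0.11, 95% interval 0.26 to 0.74, adjusted p in limma 0.00834), and it passed with any 1 array left out. Wnt5b was dim: its mean over the arrays was above that of 48.6% of genes. The gene leaves the test when those with a mean below 5.64 (the median) are removed.

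Wnt11, a ligand known for polarity and cell movement in the embryo, was lower on average in CAFs without passing. It was at 6.19, 5.10 and 6.23 in carcinoma D3, D4 and D10 and at 6.12, 5.93 and 6.15 in advanced carcinoma D8, D9 and D11. It was at 6.5, 6.58 and 6.14 in hyperplasia D6, D7 and D12 and at 6.16 and 6.58 in normal D2 and D5. The groups overlapped, since carcinoma D3 and D10 lay above hyperplasia D12 and normal D2. Its log2 difference was -0.44 (95% interval -0.87 to -0.01, unadjusted p in limma 0.047, adjusted p 0.125), and -0.27 without D4.

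Of the 6 antagonists, 0 passed in limma and 0 by the unmoderated contrasts, by which 21.7% of all genes passed. An unadjusted p under 0.05 in limma was reached by 0 of the 6 and by 38.4% of all genes. Their adjusted p ran from 0.295 to 0.849 in limma and their median log2 difference was 0.01. In 5 of the 6, all except Wif1, D4 was the lowest array, and the intervals were wide.

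Sfrp1, Sfrp2 and Sfrp4 share the cysteine-rich domain of Frizzled receptors with which they bind Wnt ligands. Sfrp1 was at 9.95, 8.12 and 10.36 in carcinoma D3, D4 and D10 and at 9.78, 10.01 and 9.90 in advanced carcinoma D8, D9 and D11. It was at 9.68, 8.77 and 9.90 in hyperplasia D6, D7 and D12 and at 9.28 and 9.75 in normal D2 and D5. Carcinoma D3 and D10 and advanced carcinoma D9 were above all normal and hyperplasia arrays, advanced carcinoma D11 was level with hyperplasia D12 at this rounding, and D4 was below all of them. The log2 difference of Sfrp1 was 0.21 (95% interval -0.58 to 1.01, adjusted p in limma 0.699), and without D4 it was 0.53 (0.08 to 0.97, adjusted p 0.0849). Sfrp2 was at 10.46, 8.77 and 10.54 in carcinoma and at 10.41, 10.43 and 10.14 in advanced carcinoma, against 10.55, 10.49 and 10.23 in hyperplasia and 10.39 and 10.51 in normal glands, in the same order of arrays. Apart from D4, its CAF arrays lay between 10.14 and 10.54, against 10.23 to 10.55 in the others. The log2 difference of Sfrp2 was -0.31 (-0.92 to 0.31, adjusted p in limma 0.449), and -0.04 (-0.23 to 0.15) without D4. Sfrp4 was at 9.93, 7.84 and 9.74 in carcinoma and at 10.02, 10.03 and 9.85 in advanced carcinoma, against 10.32, 10.39 and 9.85 in hyperplasia and 9.78 and 10.22 in normal glands. Of the CAF arrays, D4 and D10 lay below all normal and hyperplasia arrays. The log2 difference of Sfrp4 was -0.54 (-1.34 to 0.25, adjusted p in limma 0.295), and -0.20 (-0.47 to 0.08) without D4.

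Dkk3, a divergent Dickkopf protein, was the antagonist whose call turned on D4. It was at 7.08, 5.40 and 6.86 in carcinoma D3, D4 and D10 and at 7.52, 7.01 and 7.08 in advanced carcinoma D8, D9 and D11. It was at 6.47, 6.01 and 6.68 in hyperplasia D6, D7 and D12 and at 6.19 and 6.69 in normal D2 and D5. In 5 of the 6 CAF arrays Dkk3 was above every other array, and in D4 it was below all of them. Its log2 difference was 0.42 (95% interval -0.28 to 1.12, adjusted p in limma 0.361), and without D4 it was 0.70 (0.36 to 1.05, adjusted p 0.00992), beside 23.6% of all genes called without D4.

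Dkk2, which binds Lrp co-receptors, was at 7.30, 5.14 and 6.95 in carcinoma and at 7.07, 7.36 and 7.11 in advanced carcinoma, against 7.10, 7.09 and 6.88 in hyperplasia and 6.63 and 6.94 in normal glands. The groups overlapped, with D4 lowest. The log2 difference of Dkk2 was -0.11 (-0.87 to 0.66, adjusted p in limma 0.849), and 0.23 (-0.01 to 0.46, adjusted p 0.147) without D4. Wif1 was at 4.58, 5.38 and 4.44 in carcinoma and at 5.85, 4.68 and 4.60 in advanced carcinoma, against 4.44, 4.80 and 4.62 in hyperplasia and 5.13 and 4.97 in normal glands. Advanced carcinoma D8 and carcinoma D4 were its highest arrays, and the other 4 CAF arrays lay among the rest. The log2 difference of Wif1 was 0.13 (-0.42 to 0.68, adjusted p in limma 0.739).

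**Figure D2:**
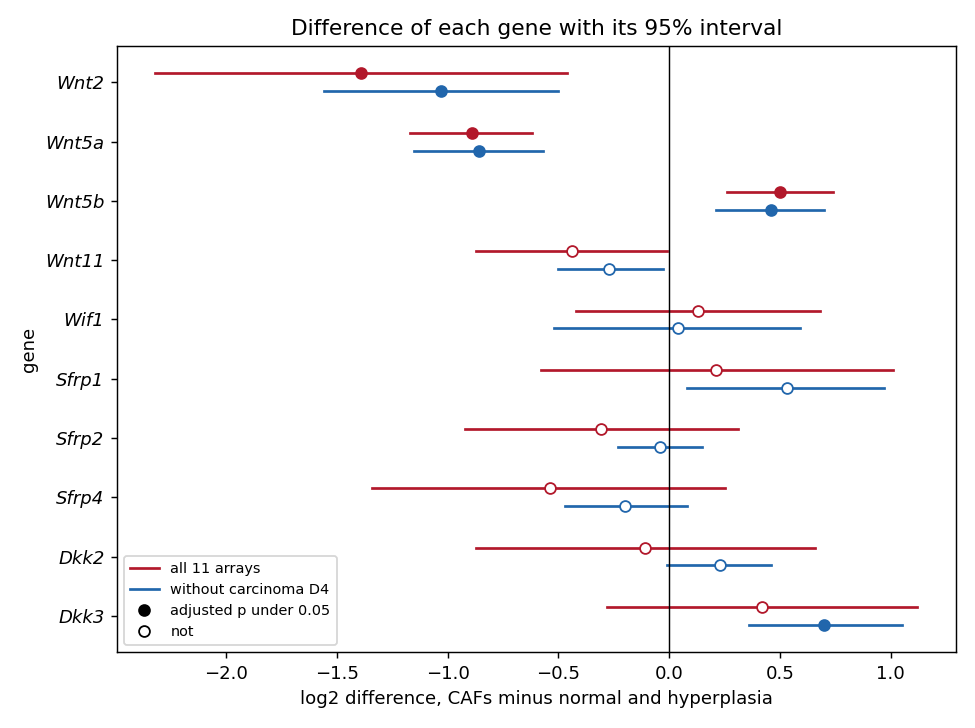
Log2 difference between CAFs and normal and hyperplasia arrays (x axis) for each of the 10 genes (y axis), with its 95% interval, from all 11 arrays and without carcinoma D4. Filled points passed at an adjusted p under 0.05: Wnt2, Wnt5a and Wnt5b in both fits, and Dkk3 (0.70) without D4.

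By stage, Wnt5a stood out as the gene whose level differed over the 4 stages, and the direction of its steps was not the same throughout. Normal glands averaged 8.03 ± 0.18 (SD, n = 2), hyperplasia 8.52 ± 0.21, carcinoma 7.39 ± 0.15 and advanced carcinoma 7.47 ± 0.04 (SD, n = 3 each). It passed the moderated F test over the stages (limma, adjusted p = 0.00462), as did 9.04% of all genes, and no other of the 10 did. Without D4, Wnt2 and Wnt5b passed too, but the share of all genes that passed this test without D4 was not computed.

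Against hyperplasia, both tumour stages had less Wnt5a. The log2 difference was -1.05 in advanced carcinoma (SE 0.12, adjusted p in limma 0.0029) and -1.13 in carcinoma (SE 0.12, adjusted p in limma 0.00565), and both passed with any 1 array left out. Wnt5b rose in advanced carcinoma by 0.63 on the log2 scale (SE 0.15, adjusted p in limma 0.0252), with 5.86 ± 0.19 in advanced carcinoma and 5.23 ± 0.14 in hyperplasia (SD, n = 3 each). This call was lost without hyperplasia D6 (adjusted p = 0.0832), D7 (0.0543) or D12 (0.0525), without advanced carcinoma D8 (0.1) or D9 (0.101), and with the unmoderated contrasts (0.057). In all, 2 of the 10 genes passed between advanced carcinoma and hyperplasia, beside 14.5% of all genes, and 1 passed between carcinoma and hyperplasia, beside 9.25%. The carcinoma difference of Wnt5b was 0.46 (adjusted p in limma 0.09).

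For Wnt2 and Dkk3 the calls between advanced carcinoma and hyperplasia turned on carcinoma D4, which enters through the estimate of spread that the 4 stages share. Wnt2 was at 7.73 ± 0.13 in advanced carcinoma, 7.77 ± 1.58 in carcinoma and 9.09 ± 0.22 in hyperplasia (SD, n = 3 each). Its log2 difference from hyperplasia was -1.36 in advanced carcinoma (adjusted p in limma 0.176, and 0.000918 without D4) and -1.32 in carcinoma (0.204). Dkk3 was at 7.20 ± 0.28 in advanced carcinoma and 6.39 ± 0.34 in hyperplasia, a log2 difference of 0.82 (adjusted p in limma 0.199, and 0.0211 without D4). Neither mean of that comparison includes D4, so the 2 differences are the same without it. The share of all genes that passed there without D4 is not given here.

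Against normal glands, of which there were 2 arrays, few of the 10 genes passed. In advanced carcinoma Wnt5a had a log2 difference of -0.57 (SE 0.13, adjusted p in limma 0.0437), the 1 gene of 10 that passed, beside 5.61% of all genes. It did not pass with the term for D2 and D11 (0.0787) or by the unmoderated contrasts (0.0949), nor without D2 (0.203), D3 (0.0509), D5 (0.13), D6 (0.0615), D7 (0.053), D8 (0.13), D9 (0.139), D10 (0.0515) or D11 (0.079). The difference of Wnt2 was -1.49 (adjusted p in limma 0.25, and 0.00185 without D4) and that of Wnt5b was 0.52 (0.107, and 0.0256 without D4). That of Dkk3 was 0.76 (0.359). For this comparison the share of all genes that passed without D4 is not given here. In carcinoma 0 of the 10 passed in limma, beside 0.938% of all genes, 1 had an unadjusted p under 0.05, beside 18% of all genes, and 0 passed by the unmoderated contrasts. That 1 was Wnt5a, at -0.64 (adjusted p 0.0599, and 0.0417 without hyperplasia D12), while Wnt2 was at -1.45 (0.313) and Wnt5b at 0.35 (0.309).

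Each hyperplasia array was above both normal arrays in Wnt5a, as arrays without overlap were in 18.5% of all genes in either direction, and the difference failed the adjustment. The log2 difference was 0.48 (unadjusted p in limma 0.00515, adjusted p 0.999), and 0 of the 10 genes passed in limma or by the unmoderated contrasts, beside 0% of all genes. Wnt5a was the 1 gene of the 10 with an unadjusted p under 0.05, beside 4.22% of all genes. Between advanced carcinoma and carcinoma 0 of the 10 passed in limma, beside 0% of all genes, 0 had an unadjusted p under 0.05, beside 5.64%, and 0 passed by the unmoderated contrasts. The difference of Wnt5a there was 0.08 (adjusted p 0.945). The comparisons against normal glands share the 2 normal arrays and those against hyperplasia share its 3 arrays, so their values are not independent of each other.

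The rest of the pathway was read from 10 lists of Wnt genes, of which 89 of 90 genes were measured. In CAFs against normal and hyperplasia, 19 of the 89 were higher and 17 lower at an adjusted p under 0.05 (limma), and 32 of the 89 passed with the term for D2 and D11. Of all genes, 12% were higher and 12.8% lower, and 20.3% passed with the term. Lgr5 and Lef1 each stand in 2 lists.

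**Figure D3:**
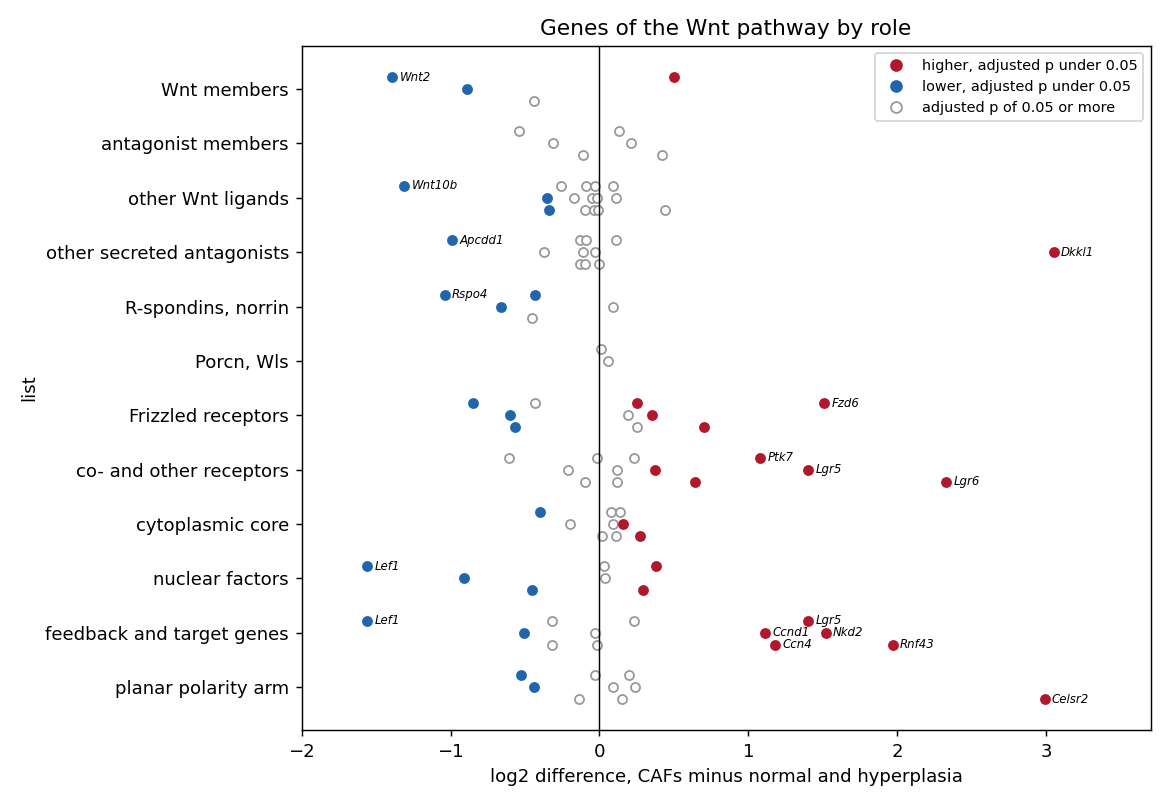
Log2 difference between CAFs and normal and hyperplasia arrays (x axis) for each gene of the Wnt pathway by list (y axis). Filled points passed at an adjusted p under 0.05, and those with the larger differences are named; the 10 genes described above are in the first 2 lists. All calls among the other Wnt ligands and the R-spondins are to the left of 0, and those among the co- and other receptors are to the right.

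Among 15 other Wnt ligands 3 fell, 0 rose and 12 did not pass, while without D4 3 fell and 1 rose. That 1 was Wnt9a, chosen after its values were seen, at 5.50, 4.58 and 5.55 in carcinoma D3, D4 and D10 and at 6.09, 5.87 and 5.67 in advanced carcinoma D8, D9 and D11, against 5.06, 5.20 and 5.23 in hyperplasia and 5.02 and 5.0 in normal glands. In 5 of the 6 CAF arrays Wnt9a was above every other array and in D4 it was below all of them, with a log2 difference of 0.44 (adjusted p in limma 0.159), and of 0.63 without D4 (0.00281). Wnt10b, a ligand of the early mammary gland, was at 4.66 in CAFs and 5.97 in normal and hyperplasia arrays (log2 difference -1.31, adjusted p in limma 0.00916). Hyperplasia D6 and D7 were its highest arrays, at 6.48 and 6.97, and no CAF array exceeded 4.94. The difference of Wnt10b was -1.06 without D7 and -1.53 without hyperplasia D12. Wnt9b fell by 0.35 (adjusted p 0.00222) and Wnt1 by 0.34 (0.0301, lost without D6 at 0.0747, D8 at 0.0599 or D9 at 0.0536). R-spondins amplify Wnt signals by sparing Frizzled receptors from degradation. Of 5 genes (4 R-spondins and norrin) 3 fell and 0 rose: Rspo4 by 1.04 (adjusted p 0.0174), Rspo3 by 0.66 (0.011) and Rspo2 by 0.43 (0.00544). Without D2 and D11, 2 of these 5 passed. The genes for ligand release did not pass: Wls, which carries Wnt proteins to the cell surface, was at 9.54 in CAFs and 9.53 in the other arrays, and Porcn, which attaches their lipid, was at 6.2 in CAFs and 6.14 in the others.

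Of 11 genes listed as other secreted antagonists, which include the membrane-bound Apcdd1, 1 rose, 1 fell and 9 did not pass. Dkkl1, a Dickkopf-like protein, was at 8.18, 8.98 and 7.52 in carcinoma D3, D4 and D10 and at 8.53, 8.37 and 7.89 in advanced carcinoma D8, D9 and D11. It was at 4.39, 4.80 and 6.05 in hyperplasia D6, D7 and D12 and at 5.83 and 4.92 in normal D2 and D5. The log2 difference was 3.05 (SE 0.33, adjusted p in limma 0.000243), with no overlap. Apcdd1, a membrane-bound inhibitor of Wnt signalling, fell by 0.99 (adjusted p 0.0252), and did not pass without D6 (0.06), D7 (0.0618), D8 (0.0545) or D9 (0.0554).

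The receptors moved in both directions. Of 10 Frizzled genes 4 rose and 3 fell, and with the term for D2 and D11 3 rose and 3 fell. Fzd6 was at 6.80 in CAFs and 5.29 in the other arrays (log2 difference 1.51, adjusted p in limma 0.000814). Fzd9 was higher by 0.70 (0.00456) and Fzd5 by 0.35 (0.00456). Fzd4 fell by 0.85 (0.0132), Fzd10 by 0.60 (0.0014) and Fzd8 by 0.57 (0.00597). Of 12 co-receptors and other receptors 5 rose and 0 fell, and 3 rose without D2 and D11. Lgr6 and Lgr5, receptors for R-spondins, were higher by 2.33 (adjusted p 0.000805) and 1.40 (0.00102), and the Wnt co-receptor Ptk7 by 1.08 (0.00264).

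Of 9 genes of the cytoplasmic core 2 rose and 1 fell: the kinase Csnk1a1 rose by 0.27 (adjusted p in limma 0.00886), the scaffold Apc by 0.16 (0.0331, and 0.0546 with the term for D2 and D11) and Dvl2, a Dishevelled protein that relays the receptor signal, fell by 0.40 (0.000614). The call of Apc was lost without D4 (0.0585), D6 (0.079), D7 (0.0735), D8 (0.069), D9 (0.0703) or D12 (0.0558). Of 7 nuclear factors measured 2 rose and 3 fell, and without D2 and D11 1 rose and 1 fell. Tcf7l1, known mainly as a repressor, fell by 0.91 (0.00225) and the coactivator Pygo1 by 0.45 (0.0277, lost without D5 at 0.0542, D6 at 0.0655, D7 at 0.0621 or D9 at 0.0548). Tcf7l2, a DNA-binding partner of β-catenin, rose by 0.29 (0.0198) and its cofactor Bcl9 by 0.38 (0.0293, lost without D5 at 0.0609, D6 at 0.0576, D7 at 0.0706 or D9 at 0.0533).

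Lef1, a DNA-binding partner of β-catenin that is also a target gene and is abundant in T cells, fell by 1.56 on the log2 scale (SE 0.48, adjusted p in limma 0.0357). It was at 6.39, 7.20 and 6.31 in carcinoma D3, D4 and D10 and at 5.61, 5.44 and 5.29 in advanced carcinoma D8, D9 and D11. It was at 6.99, 7.58 and 8.95 in hyperplasia D6, D7 and D12 and at 8.21 and 6.28 in normal D2 and D5. The groups overlapped, and the 2 highest arrays were hyperplasia D12 and normal D2. These were also the 2 arrays with the highest mean of 8 T and NK cell markers, at 8.26 in D12 and 7.57 in D2, against 5.27 to 6.72 in CAF arrays and 5.95 to 6.90 in the remaining normal and hyperplasia arrays, and their part in the difference was not tested. The call was lost with the term for D2 and D11 (0.0518) and without D2 (0.0766), D7 (0.069), D8 (0.0736), D9 (0.0743), D11 (0.0695) or D12 (0.0735).

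Of 12 feedback and target genes of β-catenin that were measured, 5 rose and 2 fell, and with the term for D2 and D11 4 rose and 1 fell. Rnf43, a ubiquitin ligase that clears Frizzled receptors, rose by 1.97 (adjusted p in limma 0.000761) and Nkd2, which binds Dishevelled, by 1.52 (0.00209), whereas its relative Nkd1 fell by 0.51 (0.015). Axin2, the target most used as a readout of the pathway, was at 5.97 in CAFs and 6.29 in normal and hyperplasia arrays (adjusted p 0.205). By stage it was at 6.56 and 6.63 in normal D2 and D5, at 5.97, 5.99 and 6.28 in hyperplasia D6, D7 and D12, at 6.26, 6.05 and 6.42 in carcinoma D3, D4 and D10 and at 5.72, 5.69 and 5.67 in advanced carcinoma D8, D9 and D11. The 3 advanced carcinoma arrays were below all others. Against normal glands Axin2 fell by 0.90 in advanced carcinoma (SE 0.12, adjusted p in limma 0.00847, and 0.0194 with the term for D2 and D11), a call lost without normal D2 (0.0525) or D5 (0.0834). Against hyperplasia its difference in advanced carcinoma was -0.39 (adjusted p 0.0438), which did not pass with the term (0.0967), by the unmoderated contrasts (0.0738) or without any 1 of 9 arrays (0.0631 to 0.13), all except D4 and D10.

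Of 9 genes of the planar polarity arm 1 rose and 2 fell: the cadherin Celsr2 rose by 2.99 (adjusted p in limma 0.000226), the formin Daam2 fell by 0.53 (0.0115) and the membrane protein Vangl1 by 0.44 (0.0151).

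**Figure D4:**
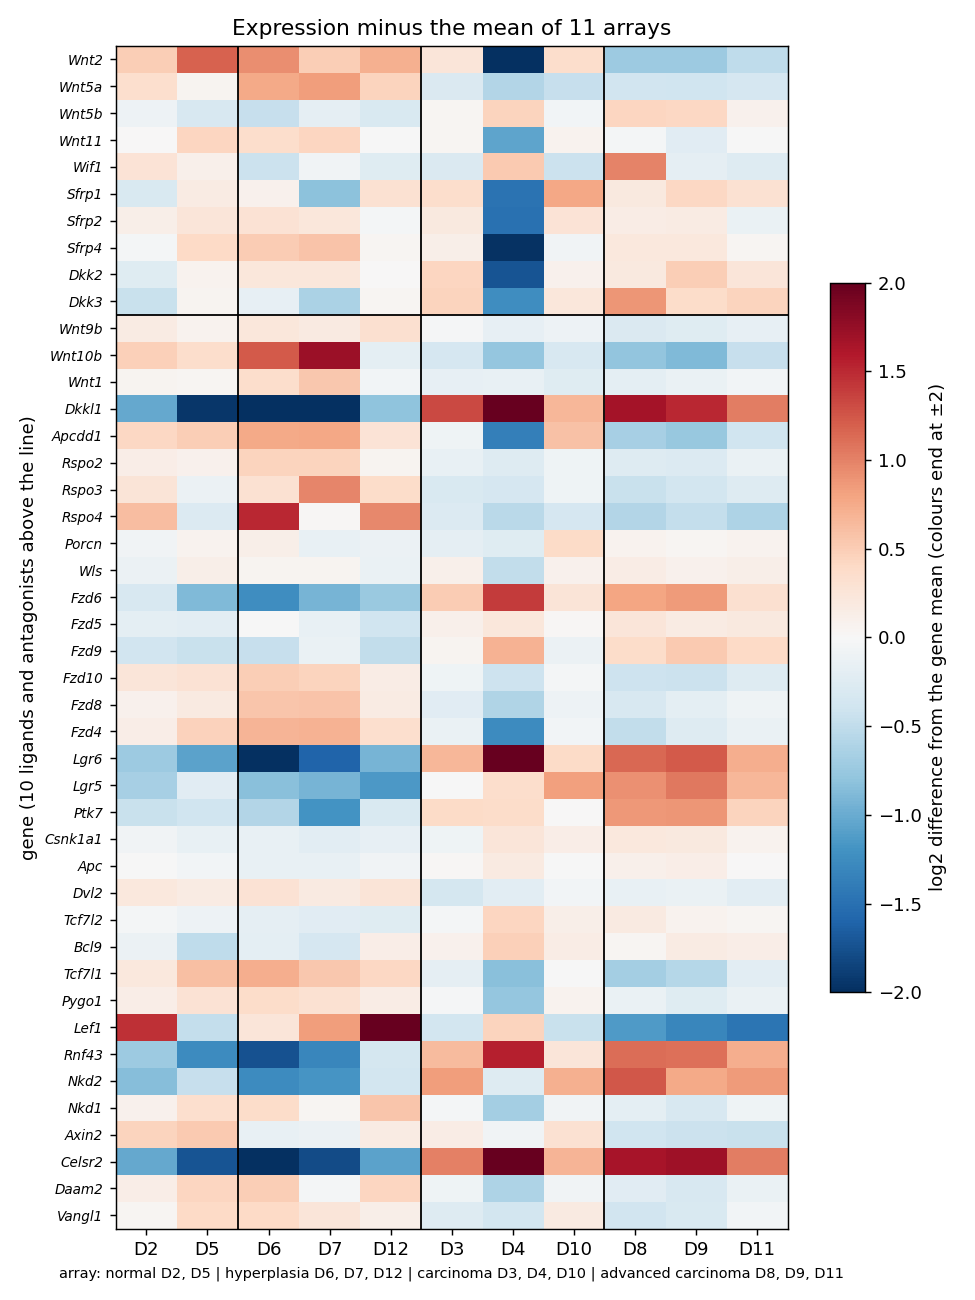
Log2 expression minus the mean of the 11 arrays for the 10 ligands and antagonists (above the line) and the named genes of the pathway (y axis), on each array by stage (x axis), with colours that end at 2 on either side. Carcinoma D4 is the lowest column in 8 of the 10 upper rows. It is the highest in lower rows such as Dkkl1, Fzd6, Lgr6, Rnf43 and Celsr2, but not in Nkd2 or Lgr5.

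The genes of these lists with the largest rises were not spread evenly over the CAF arrays. Dkkl1, Fzd6, Lgr6, Rnf43 and Celsr2 each reached their highest level in D4, at 8.98, 7.51, 8.27, 7.38 and 8.43. D4 also had the highest mean of the 15 luminal markers, at 9.54, and the lowest fibroblast mean, at 9.42. Nkd2 was lowest among the CAF arrays in D4, at 6.80. Each of these 6 genes passed without D4 as well, and the part of epithelial RNA in their rise was not tested.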

How the data were processed

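Fibroblast RNA was measured on Affymetrix Mouse Gene 1.0 ST arrays. The values used are those the authors deposited, log2 expression made by robust multi-array averaging (RMA) in Partek Genomics Suite 6.5. The genome build was not given in the sources used here, and no image files were used here. No source used here describes a step that would tie normal D2 to advanced carcinoma D11.

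Of 35399 probe sets, 21789 had 1 gene symbol in the platform annotation, 1621 had several and 11989 none here. The brightest probe set by the mean of 11 arrays was kept for each of 999 genes with several, which left 19938 genes. Groups were taken from the sample labels, and nothing in them pairs arrays across stages. Differences were tested in R 4.3.3 with limma 3.58.1 (lmFit and eBayes, no covariate) on all 11 arrays, as CAFs against the rest and as 4 stages that share 1 estimate of spread, with Benjamini-Hochberg adjustment over all genes and a threshold of 0.05. Array number limits the precision: a stage has 2 to 3 arrays, each a cohort of mice, and 2 arrays are not independent. Between stages, p-values measure the spread between cohorts. In CAFs against the rest, that spread also holds the difference between the 2 stages within each group. The script was tested on simulated data.

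Alternatives were quantile normalization, median-centred arrays, removal of genes with a mean below 5.64 (the median), every probe set, unmoderated one-way ANOVA contrasts, as in the methods, limma-trend with robust estimates, array weights, the arrays of 2 stages only, a term for D2 and D11, leaving both out, each array left out, and fold thresholds. Leaving out D4 with D2 and D11 was added after seeing the data. All 10 genes are named; of each pathway list, up to 3 genes with the smallest adjusted p in each direction among those called in CAFs are named, or the 1 with the smallest p where none was called, with Axin2, Lef1 and Wls always. Epcam and Wnt9a, and Axin2 with each array left out in the stage comparisons, were added after values were seen. The 10 genes, the lists and the tests were chosen with earlier results of these data known. Promoter windows are from RefSeq (GRCm38.p6).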

Additional observations from a re-analysis of the deposited data

Results flagged for a closer look

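Carcinoma D4 lay far below the other 5 CAF arrays in 6 of the 10 genes, by a gap to the next array that exceeded Dixon's critical share of the range (0.625 for 6 arrays). Sfrp4 was at 7.84 in D4, against 9.74 in the next lowest CAF array. Sfrp1 was at 8.12 (next 9.78), Sfrp2 at 8.77 (next 10.14), Dkk2 at 5.14 (next 6.95), Dkk3 at 5.40 (next 6.86) and Wnt11 at 5.10 (next 5.93). In all, 20 groups of arrays were examined and chance marks about 1 group in 20, and the 6 share 1 array, so they are not independent. The share of all genes with such a gap in D4 was not computed, so the count does not set these 10 genes apart. The fibroblast marker mean of D4 was 9.42, against 10.68 to 11.07 in the other CAF arrays, and its part in these values was not tested.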

How the results depend on the processing

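Of 26 differences of single genes, 556 values were computed under the alternatives, of which 498 kept direction and call, 31 lost the call, 20 gained it and 7 changed sign. Most of the 26 did not pass in the main fit, and only a difference that passed can lose its call. The 498 therefore do not measure how stable the calls were. The CAF count of 3 ran from 2 to 4, and the pathway count of 36 from 25 (dim genes removed) to 41, or 26 to 35 with 1 array left out. The 25 are counted among fewer than the 89 measured genes, since listed genes with a mean below 5.64 leave the test. Wnt5b leaves the test when dim genes are removed, and the Wnt2 call in CAFs was also lost without D2 and D11 (adjusted p 0.0719). Between advanced carcinoma and normal glands the count of 1 was 0 with quantile normalization, every probe set, the unmoderated contrasts, the term for D2 and D11, both arrays left out and either fold threshold, 2 with only the arrays of these stages and without D4, D2 and D11, and 3 with array weights (0 to 3 with 1 array left out). Between carcinoma and normal glands the count of 0 was 1 with array weights and at the study's threshold (0 to 1 with 1 array left out). Between advanced carcinoma and hyperplasia the count of 2 was 1 with dim genes removed and with the unmoderated contrasts, and 4 with array weights, with only these stages and without D4, D2 and D11 (1 to 4 with 1 array left out). Between carcinoma and hyperplasia the count of 1 was 0 with only these stages. Between advanced carcinoma and carcinoma the count of 0 was 1 (Wnt2) without D4, D2 and D11. The F test count of 1 was 1 to 3 with 1 array left out, 3 without D4. The cause of these changes was not tested. The shares of all genes that passed under these settings are not given here. The changed counts therefore cannot be told apart from shifts in calls across all genes.

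The sign changes were in differences that did not pass. In CAFs, Sfrp2 changed to 0.01 without D4, D2 and D11, Dkk2 to 0.20 with array weights and 0.17 without D4, D2 and D11 (-0.21 to 0.23 with 1 array left out, 0.23 without D4), and Wif1 to -0.06 without advanced carcinoma D8 (-0.06 to 0.22 with 1 array left out). Between advanced carcinoma and carcinoma, Wnt5a changed to -0.04 with array weights and -0.01 without D4, D2 and D11. Each of the 10 genes has 1 probe set, so a next brightest one could give no value. No paired analysis was possible because the groups share no array number. Between 2 and 3 arrays a stage limit what can be detected, and a p that misses the threshold does not show equal levels.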
